A study of Mus musculus with 8 samples.

Results

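The kinesin genes were taken by name from the deposited table of 54532 genes, as every protein-coding gene whose symbol begins with Kif followed by a digit or by c. This gave 43 genes, 13 treated as mitotic kinesins and 30 as other kinesins. Among the latter is Kif1bp, which encodes a kinesin-binding protein and is not itself a motor. The 3 Kif pseudogenes and the antisense gene Kif16bos were left out, and none of these had more than 1 read in any library.

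Kinesins are motor proteins that use ATP to move along microtubules or to take them apart at their ends. One part of the family builds and drives the mitotic spindle and the division of the cell body, and these genes are transcribed mainly in cells on their way through division. The rest carries vesicles, organelles, RNAs and ciliary cargo in cells that need not divide. In the mouse heart, cardiomyocytes divide before birth and mostly leave the cell cycle in the days after it, while endothelial cells, fibroblasts and blood cells go on dividing.

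Polyadenylated RNA was sequenced from the heart of 4-day-old littermate mice. The 4 control libraries came from Mrps5 fl/+ animals and the 4 cHET libraries from Mrps5 fl/+; Myh6-Cre animals, so that both groups carry a single floxed allele of Mrps5, the gene of a mitochondrial ribosomal protein. Cre under the Myh6 promoter acts in cardiomyocytes, and per the labels it removes that allele late in embryonic life. No group carries Cre alone, so effects of Cre and of the lost allele cannot be told apart. The sex of the animals is not in the labels.

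Levels are given as FPKM, the fragment count of a gene scaled by its length and by the depth of its library. Library depth was 15490622 to 19234777 reads assigned to genes. Mrps5 itself stood at 11.6, 6.27, 10.1 and 5.15 FPKM in the libraries labelled control 1 to 4 and at 6.84, 7.12, 6.995 and 7.68 FPKM in those labelled cHET 1 to 4 (exact two-sided permutation test, n = 4 per group, p = 0.486, where 0.0286 is the smallest possible). The libraries labelled control 2 and control 4 lay below every library labelled cHET, against what their labels would give, so Mrps5 did not separate the groups and does not check the labels. Throughout, control and cHET name the libraries as labelled. The cardiomyocyte markers Myh6, Tnnt2, Actc1, Ryr2 and Actn2 summed to 8690 FPKM or more in every library. The fat cell gene Ucp1 stood at 17.8 and 16.7 FPKM in control 1 and control 2, at 6.56 in cHET 2 and at 1.62 or less elsewhere, and the sum over the atrial genes Sln, Myl7 and Nppa was lowest in cHET 3 (233 FPKM, against 1370 to 4919 in the other libraries). For the kinesins, results that rest on control 1 and control 2 are therefore also given without them.

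Promoters of genes expressed in late cell cycle phases often hold a CHR element (cell cycle genes homology region, TTTGAA or TTCGAA) close to the transcription start and CCAAT boxes upstream of it. Each motif was searched by itself on both strands, so that matches of both may share a base, in RefSeq windows (GRCm38.p6) of 250 bases before to 50 bases after the annotated start. Of the 43 genes 34 had such a window, 12 of them mitotic and 22 other kinesins. Kif20a, Kif5a, Kif5b, Kif13b, Kif28, Kif21b, Kif19a, Kifc2 and Kifc3 had no entry. For Kif2c, Kif14, Kif4, Kif17 and Kif27 the window lay wholly inside the gene as counted in the deposited table, past that gene's own start. Their windows are counted below like the others. The CHR letters were found in 11 of 12 mitotic kinesin windows (91.7%) and in 3 of 22 windows of other kinesins (13.6%), beside 19.4% of 27025 windows over all genes. CCAAT was found in 8 of 12 (66.7%), 9 of 22 (40.9%) and 37.9%. Both motifs in 1 window were found in 8 of 12 (66.7%), 3 of 22 (13.6%) and 7.70%. A match is a description of the letters and no evidence of binding, and no test was made of these shares.

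Parts of 5 windows, from 150 bases before to 30 after the start, are shown because they hold the contrast between a mitotic and a transport kinesin, with CHR and CCAAT letters of either strand in capitals (TTCAAA and ATTGG are the opposite-strand forms). Kif11 (chr19:37376232-37376411, plus strand), Kif22 (chr7:127042391-127042570, minus strand), Kifc1 (chr17:33890604-33890783, minus strand) and Kif20b (chr19:34922208-34922387, plus strand) are mitotic, and Kif1c (chr11:70700398-70700577, plus strand) is the kinesin with the highest level in these hearts.
Kif11: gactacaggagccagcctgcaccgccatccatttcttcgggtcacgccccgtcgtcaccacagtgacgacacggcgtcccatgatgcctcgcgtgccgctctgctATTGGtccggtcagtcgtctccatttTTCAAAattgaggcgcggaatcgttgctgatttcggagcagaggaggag
Kif22: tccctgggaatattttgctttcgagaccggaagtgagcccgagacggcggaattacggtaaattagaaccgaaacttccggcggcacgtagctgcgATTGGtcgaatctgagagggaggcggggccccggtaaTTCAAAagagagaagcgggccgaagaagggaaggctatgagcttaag
Kifc1: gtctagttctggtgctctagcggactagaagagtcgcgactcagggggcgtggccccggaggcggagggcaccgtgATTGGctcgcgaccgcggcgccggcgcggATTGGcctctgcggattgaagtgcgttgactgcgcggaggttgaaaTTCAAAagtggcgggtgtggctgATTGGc
Kif20b: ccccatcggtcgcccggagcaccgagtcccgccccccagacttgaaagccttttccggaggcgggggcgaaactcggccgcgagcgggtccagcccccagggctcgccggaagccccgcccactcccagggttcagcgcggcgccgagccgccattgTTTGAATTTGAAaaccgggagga
Kif1c: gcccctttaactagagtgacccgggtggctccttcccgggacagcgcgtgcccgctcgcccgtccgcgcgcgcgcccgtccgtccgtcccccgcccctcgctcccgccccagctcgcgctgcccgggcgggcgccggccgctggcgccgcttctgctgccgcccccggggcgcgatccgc

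The CHR letters began at base -19 in Kif11 and -17 in Kif22, counted from the start, and at base 2 after it in Kifc1. In Kif20b they stood as a tandem repeat from base 8 and base 14, with no CCAAT in the window. In Kif1c neither motif was present. A CHR starting within 50 bases of the start, a distance chosen after the positions were seen, was found in 9 of 12 mitotic windows (75%), in 2 of 22 windows of other kinesins (9.09%, Kif26b and Kifc5b) and in 5.29% of all windows. Of the 12 mitotic kinesins with a window, Kif18a alone had no CHR letters in its window.

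**Figure D1:**
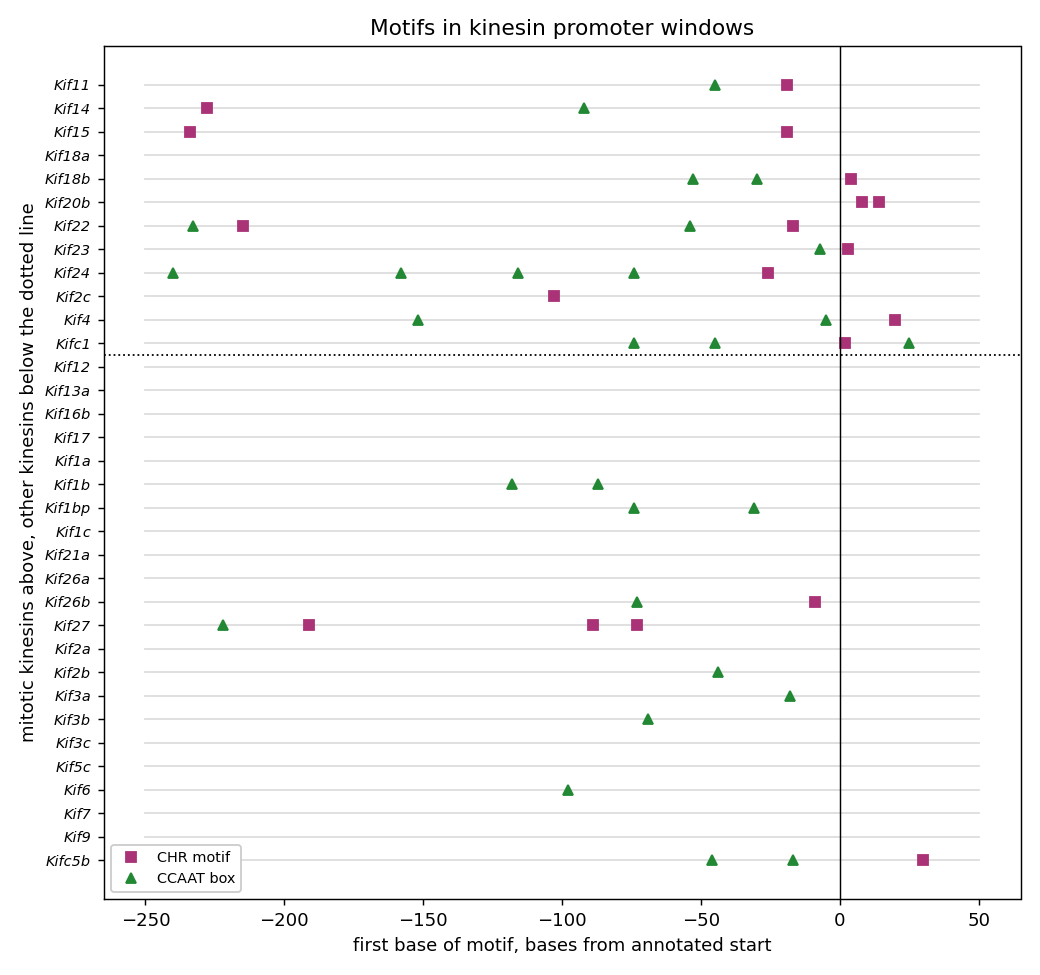
Position of CHR and CCAAT motifs in the promoter windows of 34 kinesin genes, with the first base of each motif in bases from the annotated start on the x axis and 1 gene per row. CHR squares lie near the start in 9 of the 12 mitotic kinesins above the dotted line and are found in 3 of the 22 other kinesins below it.

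All 13 mitotic kinesins had a higher mean level in the libraries labelled cHET than in those labelled control, a direction that rests on labels Mrps5 did not check, and no single gene passed the test over all genes. For 11 of them a test was made (limma on log2(FPKM + 1), genes with a mean of at least 1 FPKM); Kif18a and Kif24 fell below that level. At an adjusted p under 0.05, 0 of 11 passed, where 3 of 13029 genes (0.023%) did, none of them a kinesin. At an unadjusted p under 0.05, 9 of 11 were higher in cHET and 0 were lower, beside 5.03% of all genes higher and 3.92% lower (8.95% in either direction), and limma voom on rebuilt reads gave 0 at the adjusted and 10 at the unadjusted threshold, where 6.07% of all genes were higher. The median log2 fold change was 0.47 over the 11 tested and over all 13 members, and 0.0086 over all genes tested, of which 52.1% lay above 0. In 6 of the 13 the lowest cHET value exceeded the highest control value (Kif11, Kif15, Kifc1, Kif4, Kif18a and Kif20b), as did 2.74% of the genes tested and 1.69% of all genes with a read in any library. In bulk tissue, more cells of a dividing type and more RNA per cell cannot be told apart.

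The mitotic kinesins varied together over the libraries, so that they are not independent of one another. Control 1 was the lowest library for 11 of the 13 and cHET 4 the highest for 12. The sum over the 13 genes was 54.6, 76.6, 80.3 and 74.2 FPKM in control 1 to 4 and 93.5, 87.6, 115 and 134 FPKM in cHET 1 to 4. No control library reached the lowest cHET library, cHET 2. Without control 1 the median log2 fold change of the 11 tested genes was 0.36, and without cHET 4 it was also 0.36.

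**Figure D2:**
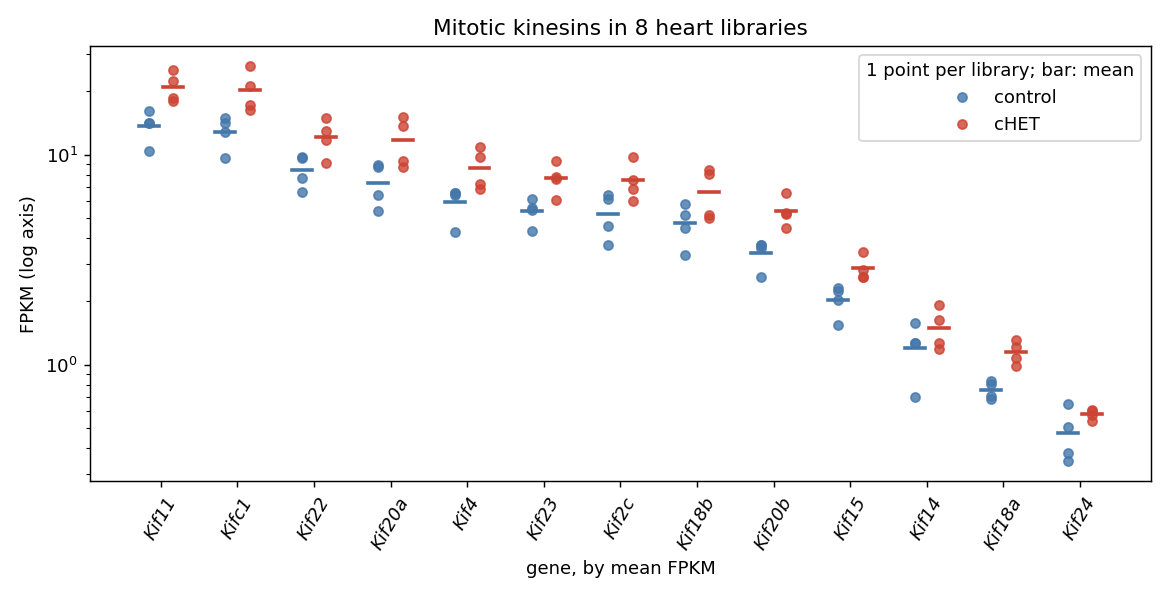
FPKM of the 13 mitotic kinesins on a log axis, by gene in order of mean level, with 1 point per library, 4 control and 4 cHET libraries per gene, and a bar at the group mean. The cHET points of Kif11, Kifc1, Kif4, Kif20b, Kif15 and Kif18a lie above all control points, while those of the other 7 genes overlap.

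Kinesins that set up the bipolar spindle were higher in cHET with no overlap between groups in all 3 members, as were 2.74% of all genes tested. Kif11 (ENSMUSG00000012443, chromosome 19, 37376403 to 37421859, plus strand), the motor that slides antiparallel microtubules apart, was the mitotic kinesin with the highest level. It stood at 10.4, 16.1, 14.1 and 14.2 FPKM in control 1 to 4 and at 18.0, 18.6, 22.5 and 25.3 FPKM in cHET 1 to 4. The lowest cHET library was above the highest control, and the group means were 13.7 ± 2.37 and 21.1 ± 3.43 FPKM (SD, n = 4), a ratio of 1.54. On the log2 scale the difference was 0.59, with a 95% interval of 0.26 to 0.92 (SE 0.148; limma, adjusted p = 0.337).

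Kifc1 (ENSMUSG00000079553, chromosome 17, 33875666 to 33890661, minus strand) encodes a motor that walks toward the minus end and focuses spindle poles. Its levels were 9.58, 14.1, 14.9 and 12.8 FPKM in control 1 to 4 and 17.3, 16.3, 21.3 and 26.5 FPKM in cHET 1 to 4, and the log2 difference came to 0.62 (SE 0.173; limma, adjusted p = 0.374). Kif15, which can share the spindle-separating work of Kif11, had 1.54, 2.24, 2.02 and 2.30 FPKM in control 1 to 4 and 2.61, 2.61, 2.83 and 3.42 FPKM in cHET 1 to 4, a log2 difference of 0.36 (SE 0.113; limma, adjusted p = 0.433). Both genes were lowest in control 1 and highest in cHET 4.

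The value of Kifc1 is uncertain in part because of Kifc5b, a close copy on the same chromosome. Of all 100-base windows in the longest Kifc1 transcript of GENCODE M21, 23.7% occur without a mismatch in transcripts of Kifc5b, and 21.2% of the Kifc5b windows occur in Kifc1. How reads that match both were counted is not given in the sources used here. Among the other 41 genes, only Kif28 shared such windows with another gene (1.63%, with Ahctf1). Kifc5b, counted here with the other kinesins, had 5.69, 6.69, 6.44 and 6.37 FPKM in control 1 to 4 and 9.04, 6.30, 8.44 and 11.3 FPKM in cHET 1 to 4 (log2 fold change 0.40, SE 0.144; limma, adjusted p = 0.482). It overlapped between groups through cHET 2.

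The chromokinesins, which bind chromosome arms and push them toward the spindle equator, had similar fold changes. Kif4, which also acts in chromosome condensation and at the midzone, had 4.27, 6.59, 6.39 and 6.54 FPKM in control 1 to 4 and 6.82, 7.21, 9.79 and 10.8 FPKM in cHET 1 to 4 (log2 fold change 0.47, SE 0.168; limma, adjusted p = 0.479). Control 1 stood apart from the other controls, and the gap between the groups was narrow. Kif22 had 6.64, 9.71, 9.68 and 7.75 FPKM in control 1 to 4 and 11.7, 9.16, 12.97 and 14.9 FPKM in cHET 1 to 4 (0.48, SE 0.158; limma, adjusted p = 0.441). Here cHET 2 lay below control 2 and control 3. Kif4 overlaps Pdzd11 by 832 bases on the other strand, and Kif22 overlaps the antisense gene Gm31749.

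Of the 4 kinesins grouped as shortening microtubules or limiting their length, 1 (Kif18a) was higher in cHET with no overlap between groups. The same count, 1 of 4, was found for midzone and cytokinesis kinesins, beside 2.74% of all genes tested that were higher without overlap. Kif2c, a depolymerase at centromeres that corrects faulty attachments, had 3.70, 6.44, 6.17 and 4.56 FPKM in control 1 to 4 and 7.59, 6.002, 6.89 and 9.71 FPKM in cHET 1 to 4 (log2 fold change 0.47, SE 0.175; limma, adjusted p = 0.494). Kif18b, which acts on astral microtubules, had 3.33, 4.45, 5.82 and 5.18 FPKM in control 1 to 4 and 5.16, 5.00, 8.11 and 8.40 FPKM in cHET 1 to 4 (0.42, SE 0.192; limma, adjusted p = 0.572). For Kif2c cHET 2, and for Kif18b cHET 1 and cHET 2, lay below the highest control, and for Kif18b the 95% interval (-0.01 to 0.85) included 0.

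Kif18a, which dampens chromosome movements at the metaphase plate, was low but separated the groups. It stood at 0.707, 0.806, 0.838 and 0.683 FPKM in control 1 to 4 and at 0.988, 1.08, 1.22 and 1.31 FPKM in cHET 1 to 4, from 108 to 224 reads per library. With a lower limit of 0.1 FPKM for the test, it had a log2 difference of 0.29 (SE 0.0892; limma, adjusted p = 0.508). Kif24, a centriolar protein that restrains cilium formation, had 0.345, 0.379, 0.506 and 0.648 FPKM in control 1 to 4 and 0.540, 0.576, 0.606 and 0.604 FPKM in cHET 1 to 4. Its highest value was in control 4, and at the same lower limit it had a log2 difference of 0.11 (SE 0.0911; limma, adjusted p = 0.742).

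Among kinesins of the spindle midzone and of cytokinesis, Kif20b had the smallest unadjusted p of all kinesins (0.00217). Kif20b (ENSMUSG00000024795, chromosome 19, 34922361 to 34975745, plus strand), needed for the last steps of abscission, had 2.62, 3.60, 3.73 and 3.70 FPKM in control 1 to 4 and 5.19, 4.46, 5.29 and 6.59 FPKM in cHET 1 to 4. The groups did not overlap, and the log2 difference was 0.53 (SE 0.126; limma, adjusted p = 0.337). Kif20a, which brings Aurora B and its partners to the midzone, had 6.39, 5.38, 8.71 and 8.89 FPKM in control 1 to 4 and 8.74, 9.34, 13.6 and 15.1 FPKM in cHET 1 to 4 (0.60, SE 0.200; limma, adjusted p = 0.445). The overlap rested on cHET 1 and control 4 alone. Kif20a overlaps Cdc23 by 2315 bases on the other strand.

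Kif23, a subunit of the centralspindlin complex, had 4.31, 5.58, 6.14 and 5.42 FPKM in control 1 to 4 and 7.63, 6.07, 7.82 and 9.29 FPKM in cHET 1 to 4 (log2 fold change 0.45, SE 0.131; limma, adjusted p = 0.400). Only control 3 and cHET 2 overlapped, by a small margin. Kif14, which recruits citron kinase to the midbody, had 0.702, 1.27, 1.27 and 1.57 FPKM in control 1 to 4 and 1.27, 1.18, 1.62 and 1.92 FPKM in cHET 1 to 4 (0.19, SE 0.152; limma, adjusted p = 0.713). It had the smallest fold change of the 11 tested mitotic kinesins, with an interval of -0.16 to 0.53.

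Levels of markers of other cell types that could hold dividing cells moved in several directions beside these genes. All 6 leukocyte markers lay below 0, with sums of 58.5 to 115 FPKM in control and 44.0 to 65.0 in cHET. Of 4 erythroid markers 1 lay above 0, with sums of 918 to 7303 FPKM in control, the highest in control 2, and 1384 to 2079 in cHET. Endothelial markers had 2 of 5 above 0 (117 to 183 FPKM in control, 145 to 161 in cHET), fibroblast markers 0 of 5 (215 to 324 and 192 to 315), smooth muscle markers 2 of 4 (383 to 838 and 470 to 784), and cardiomyocyte markers 3 of 5 (8690 to 10446 and 8953 to 12402). The 4 epicardial markers lay below 0, at 32.9 to 70.7 FPKM in control and 14.05 to 30.6 in cHET. None of these markers was at 0 in any library, and their part in the kinesin values was not tested.

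Other genes of the spindle had differences in the same direction. The list of 31 spindle and midzone partners had 0 members past the adjusted threshold (limma) and 30 higher at an unadjusted p under 0.05 (5.03% of all genes). In 22 the groups did not overlap as higher in cHET (2.74% of all genes) and in 0 as lower (2%). The median log2 fold change of the list was 0.53. Numa1, a pole-organising protein that is also abundant outside mitosis, was the exception at -0.04. Most of the 31 genes were, like the mitotic kinesins, lowest in control 1 and highest in cHET 4. The list is therefore not independent of those kinesins, and its values without control 1 and control 2 are not given here. The control and cHET means of Cenpf, a kinetochore protein, were 3.31 ± 0.687 and 5.97 ± 0.960 FPKM (SD, n = 4; log2 difference 0.70), those of the hyaluronan and spindle protein Hmmr 8.50 ± 1.16 and 14.03 ± 2.51 (0.66), and those of the abscission protein Cep55 7.79 ± 1.13 and 11.6 ± 1.73 (0.52). Their limma adjusted p-values were 0.301 to 0.337. Cenpe, a kinesin of the kinetochore that lacks the Kif symbol, had 2.29, 3.63, 4.07 and 3.84 FPKM in control 1 to 4 and 5.16, 4.51, 5.50 and 6.68 FPKM in cHET 1 to 4 (0.55, SE 0.154; limma, adjusted p = 0.374). Stard9, the other kinesin without that symbol, overlapped between groups (0.17, SE 0.164; limma, adjusted p = 0.738).

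**Figure D3:**
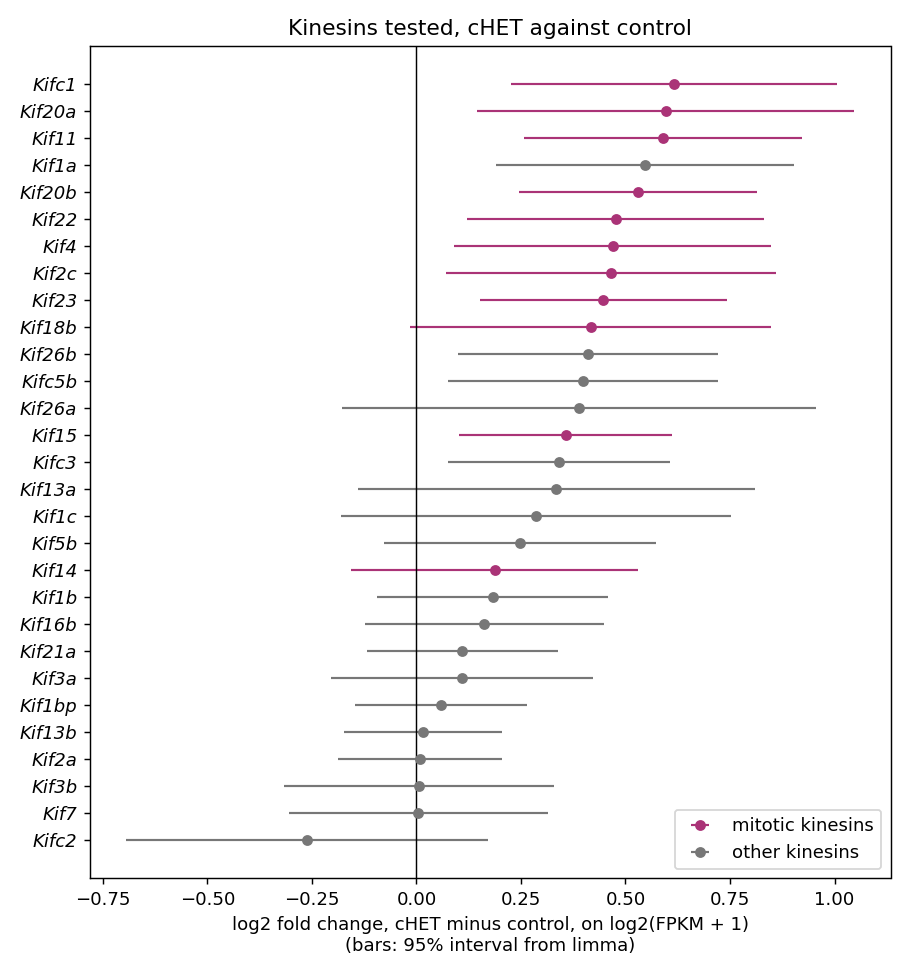
Log2 fold change of the 29 kinesins tested, cHET minus control on log2(FPKM + 1), with 95% intervals from limma and genes ordered by fold change. The 11 mitotic kinesins run from 0.19 (Kif14) to 0.62 (Kifc1), the 18 other kinesins from -0.26 (Kifc2) to 0.55 (Kif1a).

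The other kinesins had smaller and more mixed differences. Of 30 genes, 18 were tested; 0 passed at an adjusted p under 0.05, and at an unadjusted p under 0.05 limma and voom each gave 4 higher and 0 lower (Kif1a, Kif26b, Kifc3 and Kifc5b under limma). The median log2 fold change was 0.17 over the 18 tested and 0.06 over the 29 with any read. Without control 2 alone the median of the 18 was 0.09. In 2 of the 30 genes, Kif1a and Kif26b, the groups did not overlap as higher in cHET, and in 0 as lower. Of all genes tested, 2.74% did so as higher and 2% as lower. The count as higher was 5 without control 4 and 4 without cHET 2, where the share over all genes was 6.11% and 5.3%. The count as lower was 1 in each of these settings, and its share over all genes is not given here. The count at an unadjusted p under 0.05 was 9 without control 4 and 2 without cHET 4, where 7.99% and 2.76% of all genes were higher in place of 5.03%. Summed over the 30 genes, levels were 123, 112, 154 and 172 FPKM in control 1 to 4 and 158, 146, 180 and 171 FPKM in cHET 1 to 4, so that control 1 and control 2 were lowest and control 3 and control 4 lay within the cHET range. The mitotic share of all kinesin FPKM was 30.8, 40.6, 34.2 and 30.1% in control 1 to 4 and 37.1, 37.5, 38.8 and 43.9% in cHET 1 to 4, and overlapped through control 2.

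Leaving out control 1 and control 2 lowered the medians of both classes of kinesin. The median log2 fold change of the 11 tested mitotic kinesins was then 0.35, with all 11 above 0 and 7 at an unadjusted p under 0.05, beside 5.27% of all genes higher at that threshold. That of the 18 other kinesins was -0.0064, with 8 above 0, where 50.6% of all genes were, and 0 at an unadjusted p under 0.05. Kif1c, Kif13a and Kif26a, at 0.29, 0.33 and 0.39 over all 8 libraries, stood at -0.08, -0.03 and -0.08 without the 2 controls. In these 2 controls, brown fat markers summed to 59.7 and 55.5 FPKM, against 24.6 to 42.3 in the other 6 libraries, with 1 of 4 markers above 0 and Ucp1 and Adipoq at 0 in some libraries. Cidea made up most of each sum, at 36.4 and 32.1 FPKM in the 2 controls and 24.5 to 32.9 in the other 6 libraries. Adipoq stood at 4.43 and 5.16 FPKM in the 2 controls and at 2.14 or less elsewhere. With 2 controls left, 6 mitotic and 2 other kinesins did not overlap as higher, against 10.1% of all genes. As lower, 0 mitotic and 1 other kinesin did not overlap, and the share over all genes is not given here.

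**Figure D4:**
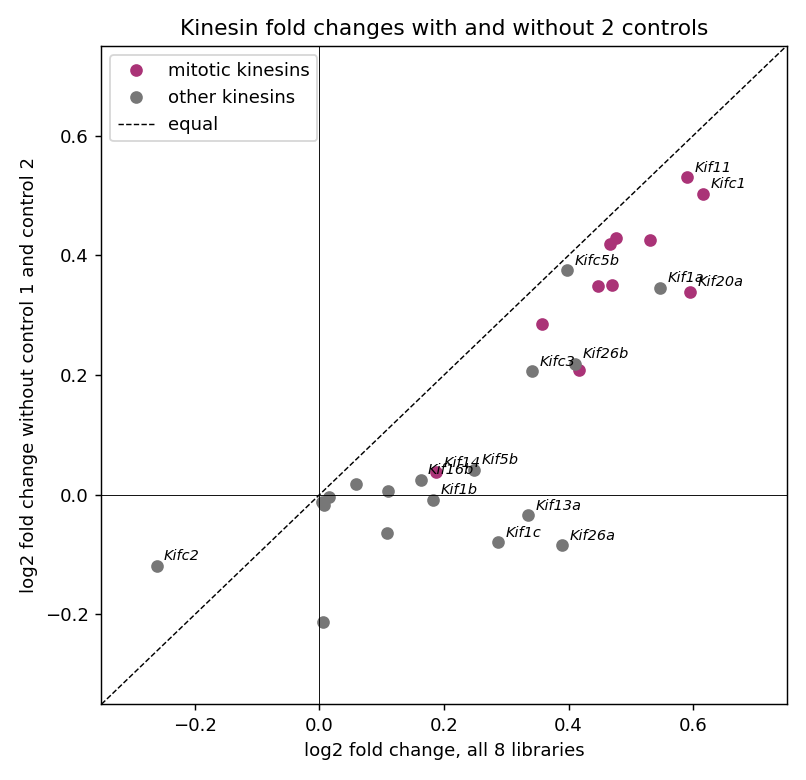
Log2 fold change of each tested kinesin over all 8 libraries (x axis) and without control 1 and control 2 (y axis), with the dashed line at equal values. The 11 mitotic kinesins stay above 0 on the y axis, while Kif1c, Kif13a and Kif26a drop from 0.29 to 0.39 to below 0.

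By level, transport kinesins led. Kif1c (ENSMUSG00000020821, chromosome 11, 70700548 to 70731964, plus strand), which carries vesicles and mRNAs, had 30.9, 27.6, 46.1 and 52.4 FPKM in control 1 to 4 and 42.2, 39.7, 55.2 and 50.4 FPKM in cHET 1 to 4. Kif5b, the ubiquitous heavy chain of conventional kinesin and a carrier of mitochondria, came next at 14.7, 17.9, 19.6 and 24.4 FPKM in control 1 to 4 and 21.1, 20.3, 25.0 and 24.2 FPKM in cHET 1 to 4. In both genes control 1 and control 2 lay below all cHET libraries and control 4 lay among the highest. The log2 fold changes were 0.29 (SE 0.207; limma, adjusted p = 0.679) and 0.25 (SE 0.145; limma, adjusted p = 0.641).

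Kif13a, an endosomal motor, resembled Kif1c in this order, with 11.1, 7.37, 14.95 and 16.7 FPKM in control 1 to 4 and 14.5, 13.9, 17.6 and 15.8 FPKM in cHET 1 to 4 (log2 fold change 0.33, SE 0.211; limma, adjusted p = 0.655). Kif1b, which carries mitochondria and vesicles, had 7.61, 6.75, 8.98 and 10.4 FPKM in control 1 to 4 and 9.88, 8.78, 10.5 and 9.22 FPKM in cHET 1 to 4 (0.18, SE 0.123; limma, adjusted p = 0.668). Kifc3, a motor directed to the minus end at cell junctions and the Golgi, had 6.45, 5.38, 6.76 and 7.89 FPKM in control 1 to 4 and 8.37, 7.36, 9.13 and 9.65 FPKM in cHET 1 to 4 (0.34, SE 0.118; limma, adjusted p = 0.468). For Kifc3 the overlap was between control 4 and cHET 2 alone.

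Kif1a and Kif26b were the other kinesins whose groups did not overlap. Kif1a, known for carrying synaptic vesicle precursors in neurons, had the largest ratio of all tested kinesins (1.86), at 0.952, 0.710, 1.64 and 1.21 FPKM in control 1 to 4 and 1.81, 2.76, 1.71 and 2.09 FPKM in cHET 1 to 4 (log2 fold change 0.55, SE 0.158; limma, adjusted p = 0.389). It was highest in cHET 2 and control 3 came close to cHET 3. The neuronal markers Stmn2 and Prph were also highest in cHET 2, at 1.59 and 1.88 FPKM, against 0.501 to 1.18 and 0.122 to 0.434 FPKM in control. In cHET 1, cHET 3 and cHET 4, where Kif1a was above every control as well, Stmn2 stood at 0.752, 0.622 and 0.956 FPKM, within the control range, and Prph at 0.205, 0.0623 and 0.346 FPKM, none above it. Th and Snap25, the other neuronal markers given here, were at 0 in at least 1 library and had log2 differences of -0.09 and -0.0055. The part of these markers in the Kif1a values was not tested.

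Kif26b, a family member without motor ATPase that acts in cell adhesion and signalling, had 1.29, 1.28, 1.91 and 2.06 FPKM in control 1 to 4 and 2.16, 2.08, 3.02 and 2.71 FPKM in cHET 1 to 4 (log2 fold change 0.41, SE 0.138; limma, adjusted p = 0.445). The gap between control 4 and cHET 2 was narrow. Its relative Kif26a, which inhibits growth factor signalling in enteric neurons, had 3.83, 2.66, 6.02 and 8.37 FPKM in control 1 to 4 and 6.42, 6.12, 7.32 and 6.79 FPKM in cHET 1 to 4, with the highest and the lowest values both in control (0.39, SE 0.251; limma, adjusted p = 0.659).

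**Figure D5:**
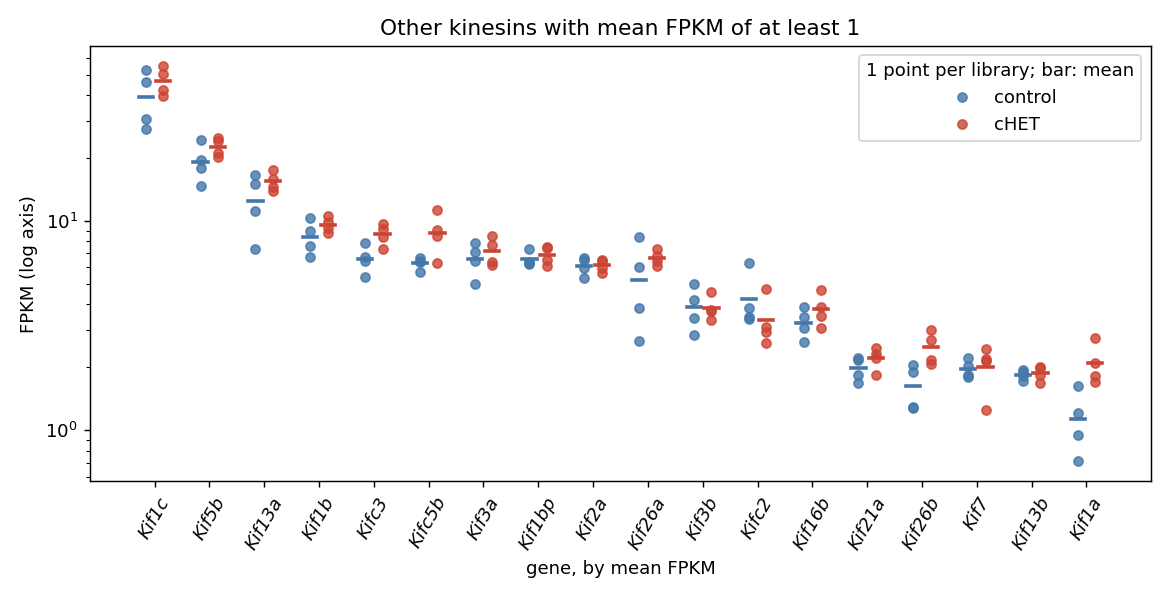
FPKM of the 18 other kinesins with a mean of at least 1, on a log axis, by gene in order of mean level, with 1 point per library and a bar at the group mean for 4 control and 4 cHET libraries. The groups overlap for every gene shown apart from Kif1a and Kif26b.

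Differences close to 0 were found for Kif2a, Kif13b and Kif1bp, of which Kif13b is a transport motor. Kif2a, a relative of Kif2c counted here with the other kinesins, had means of 6.12 ± 0.610 and 6.15 ± 0.397 FPKM in the control and cHET groups (SD, n = 4; log2 difference 0.0081, 95% interval -0.19 to 0.20). Kif13b had an interval of -0.17 to 0.20 and the kinesin-binding gene Kif1bp of -0.15 to 0.26. Wider intervals were found for the ciliary motor subunits Kif3a (-0.20 to 0.42) and Kif3b (-0.32 to 0.33) and for Kif7, a regulator of Hedgehog signalling at the cilium tip (-0.30 to 0.31). Kifc2 was the only tested kinesin below 0, at -0.26 (SE 0.192; limma, adjusted p = 0.685), and its highest value was 6.29 FPKM in control 1. Kif16b and Kif21a had 0.16 and 0.11.

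The remaining 12 other kinesins had means below 1 FPKM and were not tested. They include Kif3c (0.903 FPKM), Kif6 (0.694), the neuronal heavy chains Kif5a (0.466) and Kif5c (0.279), Kif21b (0.437), Kif9 (0.219), Kif27 (0.206), Kif28 (0.189), Kif17 (0.0714) and Kif19a (0.0570), as means over the 8 libraries. Kif12 had 1 read in control 1 and none elsewhere. Kif2b, a depolymerase described mainly in testis, had 0 reads in all 8 libraries, which allows up to 3 reads or 0.0671 to 0.0861 FPKM per library, for counting error only.

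The partners of transport kinesins were counted at an unadjusted p under 0.05, which 5.03% of all genes passed as higher and 3.92% as lower. For the adaptors and the dynein genes the counts were close to these shares and show nothing about the members. Of the light chains and cargo adaptors, 16 of 22 were tested, with 1 higher and 0 lower at an unadjusted p under 0.05 and a median of 0.05. The mitochondrial adaptor Trak2 stood at 0.36, Mapk8ip3 at 0.15 and Klc4 at -0.19. Dynein and dynactin genes, the machinery of minus-end transport, had 22 of 25 members tested, with 1 higher and 0 lower and a median of 0.06. Their smallest p belonged to Nde1 (0.31), a dynein regulator that also acts in mitosis, followed by Dync1i2 (0.16) and Bicd2 (0.20). Intraflagellar transport genes, cargo partners of Kif3a and Kif3b, had 1 of 20 higher and 2 lower, with a median of -0.02 and with Ift81 at -0.36, Ift22 at -0.26 and Ift122 at 0.17. The lower count exceeded its share, but rests on 2 genes. In this list 3 genes had no overlap as lower and 1 as higher, beside 2% and 2.74% of all genes. Tubulins, the subunits of the track, had 7 of 14 higher and 0 lower, with a median of 0.33, and Tubb2a at 0.48, Tubg1 at 0.31 and Tubb2b at 0.52. For all 14 tubulins the groups overlapped. Most tubulins were lowest in control 1 and most were highest in cHET 4, as the mitotic kinesins were, so they are not independent of those kinesins. Over these 4 lists 0 genes passed at an adjusted p under 0.05 (limma).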

How the data were processed

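For 8 libraries the deposited table holds FPKM and each gene's length, per the file headers. mRNA was selected with poly-T beads, per the labels' protocols. HISAT2 2.0.5, featureCounts 1.5.0-p3, DESeq2 1.20.0 and the build mm9 are named, without their roles, per the submitters' processing notes. Gene positions equalled those of GENCODE M21 (GRCm38) for 98.3% of 54409 shared identifiers and for 40 of the 43 kinesins, so positions are given on GRCm38. FPKM multiplied by length came in whole steps in each library (100% of values, within 0.05 reads), from which reads were rebuilt.

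The 13029 genes with a mean of at least 1 FPKM were tested, cHET against control, on log2(FPKM + 1). The tool was limma 3.58.1 under R 4.3.3, with trended and robust moderation. P-values were adjusted by Benjamini-Hochberg over all 13029 genes at 0.05, two-sided. Fold changes on this scale understate those of low genes. The fit was tested on simulated data. Alternatives were other pseudocounts, limits on low values and scalings, limma without trend, with weights per library, with the replicate number as a block or with sex (read from Xist), voom on those reads, a test of protein-coding genes alone, and omission of libraries.

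The members, lists and alternatives were chosen with earlier results of these data known. Values in every library are given for mitotic kinesins, and for other kinesins with a mean of at least 1 FPKM that have an unadjusted p under 0.05, no overlap or one of the 5 highest means. Of each list the 3 genes with the smallest p are named. Kif26a, Kifc2, Numa1 and the intervals near 0 were picked after their values were seen. Of the 43 genes, 28 overlap another gene, and whether counting used strand is not given in the sources used here. Some markers and overlapping genes are not reported here.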

Additional observations from a re-analysis of the deposited data

Results flagged for a closer look

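In 94 groups of 4 libraries (47 genes: the 29 tested kinesins, Mrps5 and the genes named from the lists), 8 had a highest or lowest library far from the other 3 by Dixon's ratio; chance flags about 1 in 20. In 4 of the 8 that library was control 1. Kif4 stood at 4.27 FPKM there against 6.39 to 6.59 in the other controls, Kif20b at 2.62 against 3.60 to 3.73, Kifc2 at 6.29 against 3.40 to 3.84 and Ift81 at 11.5 against 7.99 to 8.33. The others were Kif1bp in control 3 (7.36 FPKM against 6.203 to 6.39), Ift81 in cHET 4 (5.38 against 7.15 to 7.39), Ift122 in cHET 4 (3.72 against 3.65 to 3.66) and Stard9 in cHET 1 (2.76 against 1.91 to 2.01).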

How the results depend on the processing

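No kinesin passed the adjusted threshold under any of 25 settings. For mitotic kinesins all 272 gene and setting pairs kept their direction (lowest limma adjusted p 0.120), and their median log2 fold change was 0.35 to 0.60 over the settings that gave one. For other kinesins 397 of 442 pairs kept it and 45 in 10 genes reversed (lowest adjusted p 0.170). The cause was not tested. TPM moved the median of all genes to 0.10, and mitotic kinesins stood at a median of 0.60 there. Mitotic kinesins without overlap, all of them higher in cHET, numbered 5 with TPM (3.26% of all genes were higher without overlap there), in place of 6. Without cHET 2 they numbered 9 (5.3%), as they did without control 1, control 2 and cHET 2 (13.9%). The count was 5 to 9 over the settings that gave one.

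Reversed values were, with a pseudocount of 0.1, Kif7 -0.0053. With median-ratio factors they were Kif3b -0.0034, Kif7 -0.0026 and Kif2a -0.0024. Scaling without mtDNA genes gave Kif3b -0.0080, Kif7 -0.0074 and Kif2a -0.0082, and quantile normalization Kif3b -0.0099 and Kif2a -0.0146. Library weights gave Kif3a -0.0195, Kif3b -0.113, Kif2a -0.0219 and Kif1bp -0.0377, and sex as a covariate Kif2a -0.0177. Without control 1 and control 2 the median of other kinesins was -0.0064, with Kif3a -0.0636, Kif3b -0.213, Kif1b -0.0084, Kif1c -0.0790, Kif13a -0.0340, Kif13b -0.0045, Kif7 -0.0119, Kif2a -0.0167 and Kif26a -0.0841. Without cHET 2 as well, they were Kif3a -0.0027, Kif3b -0.165, Kif1c -0.0055, Kif13b -0.0224, Kif7 -0.0837, Kif2a -0.0059 and Kif26a -0.0497.

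With 1 library left out at a time, Kif3b ran from -0.101 to 0.114, Kif2a from -0.0464 to 0.0461, Kif7 from -0.0669 to 0.139, Kif13b from -0.0076 to 0.0494, Kif3a from 0.0008 to 0.186, Kif1c from 0.139 to 0.440 and Kif26a from 0.165 to 0.617. The count of all genes past the test was 3, and 1 with a limit of 5 FPKM, 11 with library weights, 1 without control 1, control 2 and cHET 2, and 2 to 3 with 1 library left out. Other kinesins without overlap as higher in cHET numbered 2, and 1 with TPM or with quantile normalization. Without control 1, control 2 and cHET 2 they numbered 4 (13.9% of all genes there), and with 1 library left out 2 to 5. As lower in cHET, other kinesins without overlap numbered 0, and 0 to 1 with 1 library left out. Without control 1 and control 2 they numbered 1, and without cHET 2 as well 2. The share of all genes lower without overlap in these settings is not given here.

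With the replicate number as a block, 1 gene of all passed, and 10 mitotic (all higher) and 7 other kinesins (6 higher and 1, Kifc2, lower) had an unadjusted p under 0.05. Over all genes that share was 13.4% with the block and 8.95% without it. Deviations of same-numbered libraries correlated at 0.286, 0.266, 0.0521 and 0.0572, and those of other pairs at -0.272 to 0.344. Control 1, control 2 and control 3 correlated best with their own number, and control 4 with cHET 3 (0.344). Whether equal numbers mark paired animals is not settled by these values.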
